A study of Rattus norvegicus with 28 samples.

Results

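The 100 genes that took the most reads in rat orbitofrontal cortex are described here. Given are their share of the library and how far they moved between pools of animals and between groups. The orbitofrontal cortex is a frontal area that weighs rewards and the cues that predict them. Reads were scaled to CPM, which is 1000000 times a gene's count divided by all gene counts of its library. The 100 members were chosen by their mean CPM over 16 libraries and are the highest of 26405 gene identifiers. Their high level is therefore no result, but the choice used no contrast between groups.

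The animals were Sprague Dawley rats that had worked for intravenous infusions of methamphetamine (meth), a psychostimulant, or of saline. Tissue punches were taken from rats out of their home cage at withdrawal day 2 or day 35. The design gives 4 groups, day 2 saline, day 2 meth, day 35 saline and day 35 meth, with 4 libraries each. A library was made from punches of 2 rats pooled before RNA isolation, so the spread reported is between pools and not between single animals. All groups share the strain, the tissue and the poly(A) library kit, and the 12 central amygdala samples of the series were not analysed here. Every group had 1 index sequence of its own, so index and group cannot be told apart, and no label ties a library to either of the 2 cohorts of the design. Gene counts ran from 20.3 M to 48.5 M per library (M, 1000000 reads), and 15413 genes passed the filter on low counts and were tested. All 100 members were among them. The lowest count of any member in any library was 18062 reads.

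In bulk brain RNA a small set of genes commonly takes a large part of the reads. Genes for the cytoskeleton, synaptic vesicles, calcium signalling, energy supply, translation and myelin, and those of the mitochondrial genome, are typical of such sets in cortex. Myelin genes are made by oligodendrocytes, so their level in a punch depends on how much white matter it holds. Which of these genes are among the members could not be read here. The files give Ensembl identifiers without names, and 0 of 26405 identifiers matched the gene table at hand. The members are therefore called by their rank, 1 being the highest mean CPM. An identifier is printed only for ranks 48, 65 and 76, so its absence does not mark a member as level between groups. The tissue label could not be set against marker genes for the same reason.

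Reads were concentrated in few genes. Rank 1 alone took 2.69% ± 0.14 of gene counts (SD, n = 16), ranks 1 to 10 took 9.75% ± 0.59, ranks 1 to 50 took 18.4% ± 0.59 and all 100 members took 24.3% ± 0.58. The members' share lay between 23.0% and 25.3% in every library. It took 109 genes to reach 25% of gene counts, 735 to reach 50% and 5459 to reach 90%, of 20828 identifiers with at least 1 count.

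**Figure D1:**
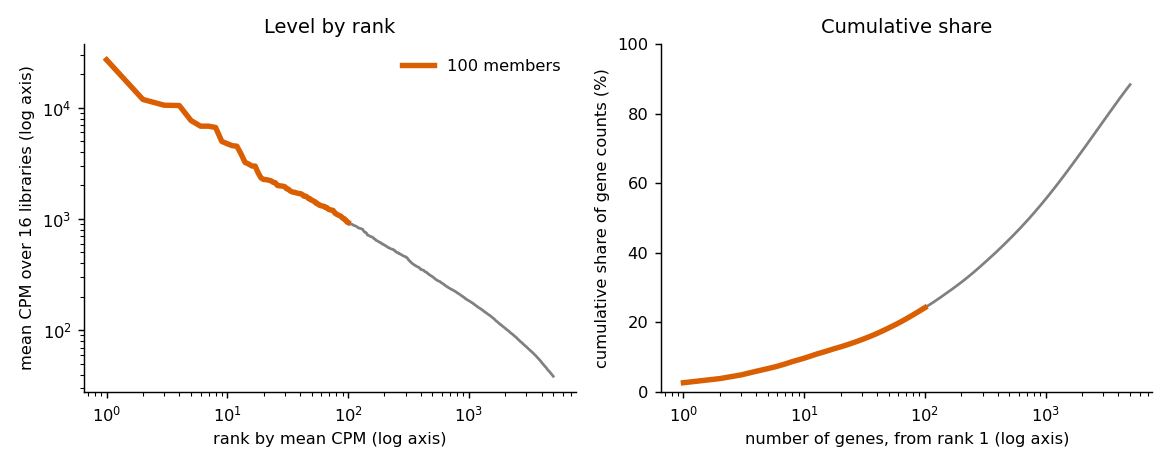
Mean CPM over 16 libraries against rank (left, both axes logarithmic) and the cumulative share of gene counts in percent (right, logarithmic horizontal axis), for ranks 1 to 5000. The thick orange stretch marks the 100 members, which reach 24.3% of gene counts.

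Only the first place was the same in every library. Rank 1 was first in all 16 libraries, from 25146 CPM in day 2 saline replicate 14 to 30421 CPM in day 35 saline replicate 9, with a median of 26731. Rank 2 followed at 11864 ± 1154 CPM (SD, n = 16) and took place 2 or 3 in every library. Ranks 3 and 4 averaged 10532 ± 849 and 10465 ± 710 CPM, a gap smaller than the spread of either, and both kept to places 2 to 4. Ranks 6, 7 and 8, at 6827 ± 558, 6825 ± 764 and 6647 ± 517 CPM, likewise lay closer together than the spread of each. The order of such members within libraries was not tested. These levels count reads. Gene lengths were not at hand, so a long transcript ranks higher than a short one present in as many copies.

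Membership was almost the same in every library. Of the 100 members, 89 were in each library's own top 100, and 113 genes entered that top 100 in at least 1 library. The lowest place any member took was 133rd, by rank 95 in day 2 saline replicate 14. At the edge of the set, ranks 98, 99 and 100 had mean levels of 938, 934 and 929 CPM, and the next genes outside had 927, 913 and 905 CPM. The edge is thus a step of under 2 CPM, and the 3 members just inside were in the top 100 of 10, 9 and 7 libraries.

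The ranges of the members' summed share overlapped between groups. Even so, 2 comparisons, both with the day 2 saline libraries, had 1 sign in every lane, as given further on. The share averaged 23.8% ± 0.65 in day 2 saline (range 23.0 to 24.5%), 24.4% ± 0.44 in day 2 meth (23.9 to 24.9%), 24.4% ± 0.58 in day 35 saline (lowest 23.6%) and 24.4% ± 0.61 in day 35 meth (24.0 to 25.3%), with SD over 4 libraries. No test was attached to this sum. In bulk tissue, fewer cells of a type and less RNA per cell cannot be told apart, here or in any level given further on.

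The members' share varied mostly through ranks 1 to 10. Their summed share ran from 8.40% in day 2 saline replicate 14 to 10.8% in day 35 meth replicate 8, a 1.28-fold range. The 90 genes of ranks 11 to 100 together held 14.3 to 14.7% in every library, a 1.03-fold range. A sum over 90 genes averages their single movements, so its range is not that of a typical gene. Day 2 saline replicate 14 had the lowest CPM of all libraries for 8 of the first 10 ranks and for 16 of the 100 members. Day 35 meth replicate 8 had the highest for 5 of the first 10 ranks. Libraries were also at the low or high end for members outside that block: day 35 saline replicate 11 was lowest for 17 members, and day 2 saline replicate 13 was highest for 17.

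The mean share differed between the sequencing lanes that the labels give. Each lane held 1 library of every group, in the order of the replicate numbers. Whether lane also marks a cohort or a preparation is not stated. The members took 24.1% ± 0.41 of gene counts in lane 1 (SD, n = 4), 23.7% ± 0.53 in lane 2, 24.4% ± 0.39 in lane 3 and 24.8% ± 0.39 in lane 4. Every lane 4 library, from 24.5 to 25.3%, lay above every lane 2 library, from 23.0 to 24.2%. Lanes 1 (23.7 to 24.6%) and 3 (24.1 to 24.9%) overlapped both. Within lanes, the share was higher in meth than in saline at day 2 by 0.033 to 1.21 percentage points in 4 of 4 lanes, with a mean of 0.55. The share was higher at day 35 than at day 2 in saline rats by 0.41 to 0.93 points in 4 of 4 lanes. Both comparisons use the same day 2 saline libraries, so a low share there enters both. Those libraries were also the shallowest, so depth and group cannot be told apart in either comparison. For meth against saline at day 35 and for day 35 against day 2 in meth rats the sign was split, 2 lanes each way. An edgeR test of lane with the groups in the model, added after these shares were seen, called 0 members and 0% of the 15413 genes. In that test 22 members and 6.88% of all genes had an unadjusted p under 0.05, and the smallest adjusted p of a member was 0.319. DESeq2 and limma-voom were not run for lane.

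**Figure D2:**
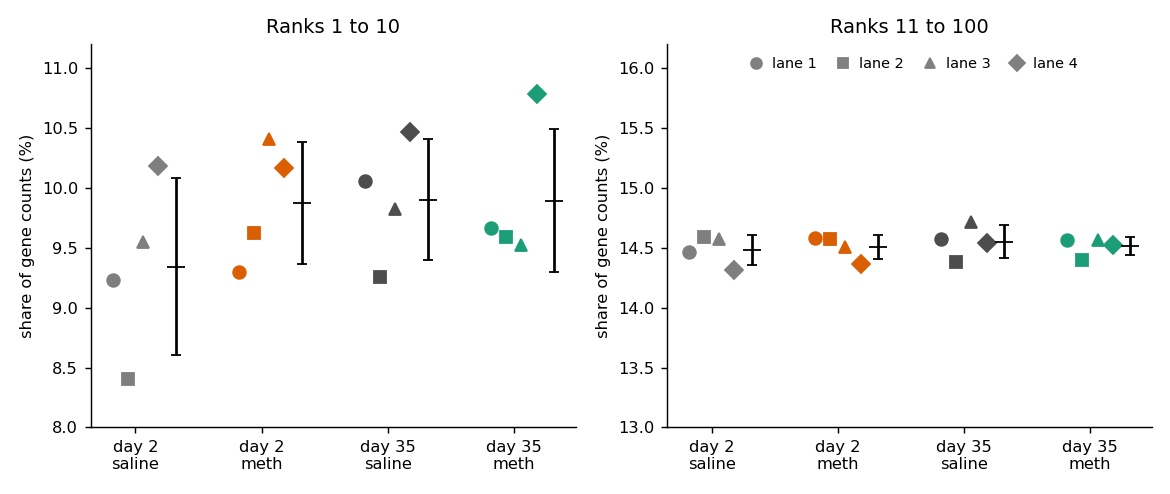
Share of gene counts in percent taken by ranks 1 to 10 (left) and ranks 11 to 100 (right) in each library, by group, with marker shape for lane and the mean ± SD of 4 libraries as a black bar; both vertical axes span the same number of percentage points and neither starts at 0. The left panel spreads from 8.40 to 10.8%, while all libraries in the right panel lie between 14.3 and 14.7%.

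Between pools of the same group, most members varied by a few percent. The coefficient of variation (CV, the SD divided by the mean) within groups had a median of 3.87% over the 100 members, against 6.91% over all genes tested, and 84 members were below the latter. It was under 5% for 65 members and over 10% for 3. Counting error alone would give the members a median CV of 0.47%, and for 85 of them the measured CV was over 5 times its counting part.

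Higher level did not go with smaller spread inside the set. The median CV was 7.09% for ranks 1 to 10, 3.90% for ranks 11 to 50 and 3.18% for ranks 51 to 100. For the 100 genes ranked next and the 800 after those it was 3.56% and 3.41%. The steadiest member was rank 52, which ran from 1393 to 1480 CPM over all 16 libraries, with a CV of 1.61%. Ranks 22 and 69 followed with CVs of 1.97% each, from 2121 to 2334 CPM and from 1181 to 1282 CPM.

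The most variable members were ranks 12, 16 and 7. Rank 12 stood at 3417, 5558, 5615 and 4534 CPM in day 2 saline replicates 13 to 16, and at 5346, 3734, 4433 and 2894 CPM in day 2 meth replicates 1 to 4. In day 35 saline replicates 9 to 12 it stood at 3912, 3783, 6763 and 3851 CPM, and in day 35 meth replicates 5 to 8 at 5170, 3747, 4720 and 4664 CPM. Every group overlapped every other, and the spread within groups was a CV of 24.0%.

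Rank 16, with a CV of 22.0%, was high and low in the same libraries as rank 12. Both were highest in day 35 saline replicate 11, at 6763 and 4403 CPM, and lowest in day 2 meth replicate 4, at 2894 and 2026 CPM. Each covered a more than 2-fold range, 2.34-fold for rank 12 and 2.17-fold for rank 16, while their ratio stayed between 1.38 and 1.65, a 1.19-fold range. No group difference could be resolved for either. Between meth and saline at day 2, the log2 fold change of rank 12 was -0.22 with a 95% interval from -0.73 to 0.30. That of rank 16 was -0.19, with an interval from -0.66 to 0.27. These intervals allow changes of over 1.2-fold in both directions.

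Rank 7 had a CV of 12.3% and ran from 4946 CPM in day 2 saline replicate 14 to 8034 CPM in day 35 meth replicate 8. These are the libraries with the lowest and highest share of ranks 1 to 10, a sum of which rank 7 is itself a part. Ranks 12 and 16 had their extremes in other libraries.

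**Figure D3:**
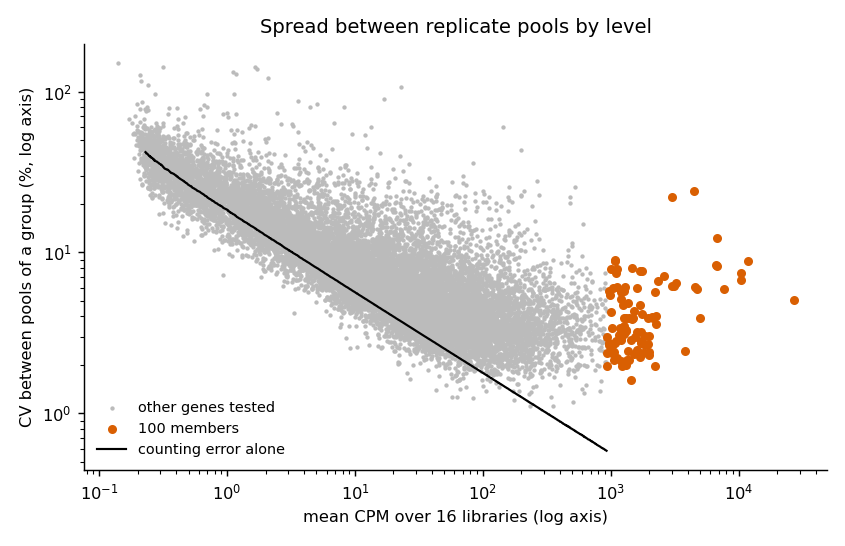
CV between pools of the same group in percent against mean CPM, both axes logarithmic, for the 100 members (orange) and the other genes tested (grey); the black line, which ends where the members begin, is the running median of the CV that counting error alone would give. The members have a median CV of 3.87% against 0.47% from counting, and ranks 12 and 16 stand highest among them.

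Across the 4 groups most members were level within narrow limits. The highest group mean was within 1.1-fold of the lowest for 80 members and within 1.2-fold for 99. The median ratio was 1.06 and the largest 1.25, in rank 48. The highest group mean was in day 2 saline for 21 members, day 2 meth for 34, day 35 saline for 22 and day 35 meth for 23.

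Closeness of means does not by itself show that groups are alike, so the 95% interval of each log2 fold change was set against a band of 1.2-fold in either direction. For 78 members the interval lay inside that band in all 4 pairwise comparisons of meth with saline and of day 35 with day 2. Over all genes tested this held for 50.04%, and among the 100 genes ranked next it held for 90. It held for 2 of the 10 genes of ranks 1 to 10, ranks 1 and 9, for 32 of 40 in ranks 11 to 50 and for 44 of 50 in ranks 51 to 100. The 22 members outside comprised 8 of the first 10 ranks, 8 of ranks 11 to 50 and 6 of ranks 51 to 100. They are members whose level either differed more or was measured less tightly.

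**Figure D4:**
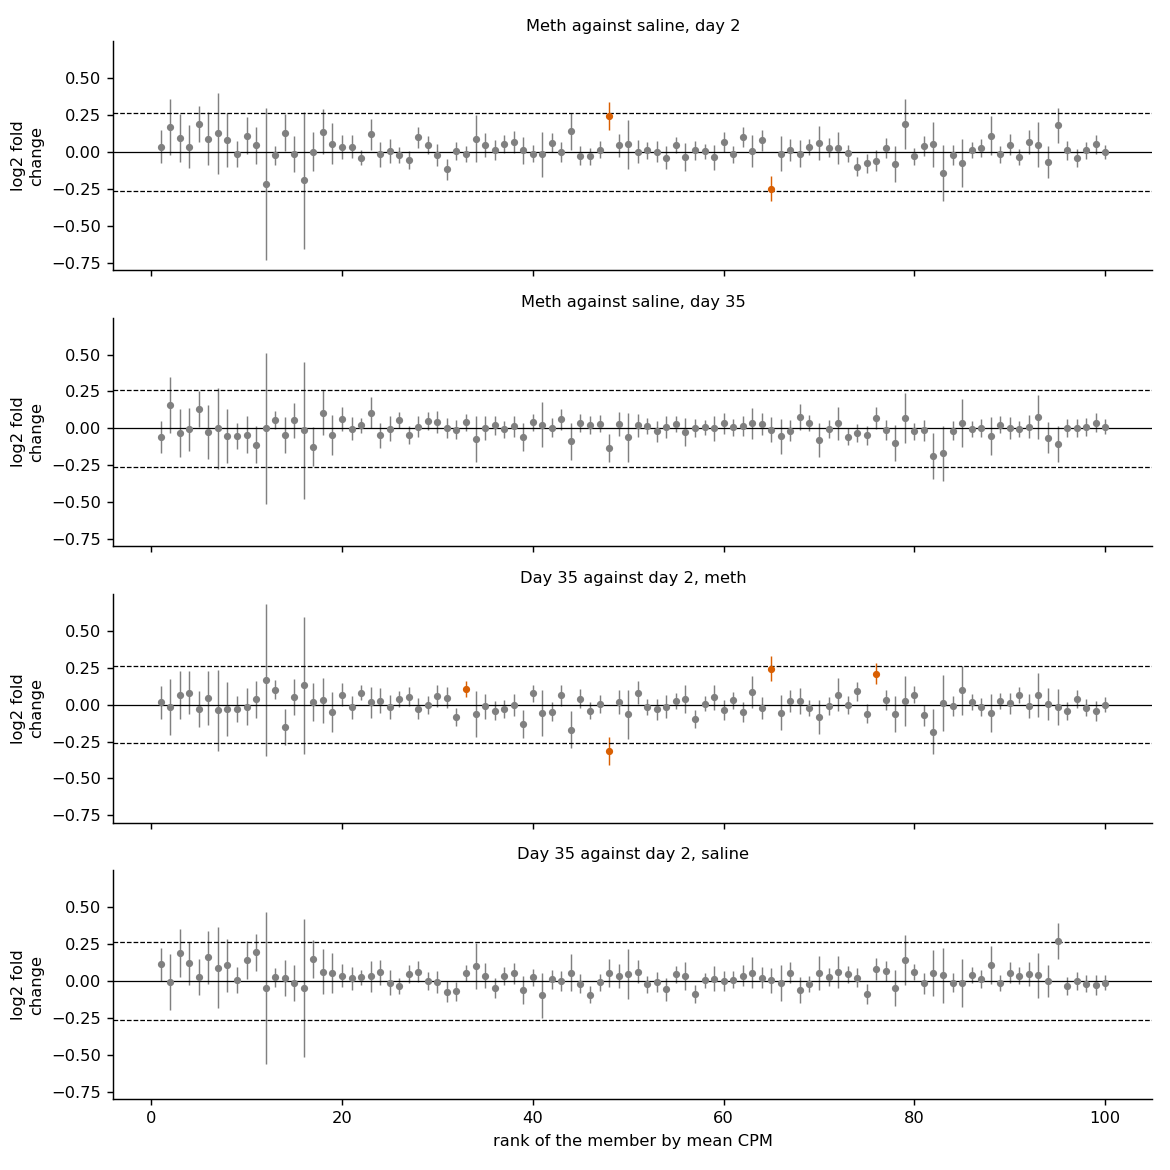
Log2 fold change of each of the 100 members against its rank in 4 comparisons, with 95% intervals from the edgeR fit; dashed lines mark 1.2-fold in each direction, and orange points have an adjusted p under 0.05. The widest intervals belong to ranks 12 and 16, and the orange points are ranks 48 and 65 at day 2 and ranks 33, 48, 65 and 76 between the days in meth rats.

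Whether any member differed among the 4 groups was tested with edgeR's quasi-likelihood F test with 3 degrees of freedom. It called 3 members, ranks 48, 65 and 76, at an adjusted p under 0.05 over all genes tested, where 0.733% of all genes were called. With lane as a replicate block 5 members were called, these 3 with ranks 5 and 95, where 0.85% of all genes were called. DESeq2 called 10 members and 3.72% of the genes to which it gave an adjusted p. With both day 2 saline replicate 13 and day 2 meth replicate 4 left out, 0 members and 0.103% of all genes were called. That pair was chosen after seeing the data.

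Between meth and saline at day 2, 2 members were called, rank 48 higher and rank 65 lower in meth rats, where 0.11% of all genes were called (0.0843% higher and 0.026% lower). The 4 libraries of each group did not overlap for 7 members, against 5.56% of all genes. The members' fold changes had a median of 0.01 on the log2 scale, as against 0.00 over all genes, and 63 were positive and 37 negative. None exceeded 1.2-fold.

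Rank 48 (ENSRNOG00000007290) stood at 1489, 1445, 1493 and 1473 CPM in day 2 saline replicates 13 to 16. It stood at 1617, 1700, 1779 and 1850 CPM in day 2 meth replicates 1 to 4, all above the saline libraries. The rise was 1.18-fold, which is 0.24 on the log2 scale with an SE of 0.045 (edgeR adjusted p = 0.0377). It passed in only 3 of 16 fits that left out 1 library (day 2 meth replicate 1, day 35 saline replicate 9 or day 35 saline replicate 10). Without any of the other 13 the edgeR adjusted p lay between 0.0519 and 0.179, with log2 fold changes of 0.21 to 0.25, and with lane as a block it was 0.0597.

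Rank 65 (ENSRNOG00000050983) stood at 1334, 1294, 1340 and 1392 CPM in day 2 saline replicates 13 to 16. Day 2 meth replicates 1 to 4 had 1191, 1092, 1117 and 1095 CPM, all below the saline libraries. The log2 fold change was -0.25 (SE 0.040, edgeR adjusted p = 0.0128). It missed the threshold without day 2 meth replicate 2 (adjusted p = 0.0613) and without day 2 meth replicate 4 (adjusted p = 0.0545).

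Rank 5 did not pass at day 2, although its groups did not overlap, which held for 7 members and for 5.56% of all genes. It stood at 6664 to 7680 CPM in the saline libraries, with a mean of 7227 ± 442, and at 7861 to 8660 CPM in the meth libraries, with a mean of 8205 ± 353 (SD, n = 4 each, log2 fold change 0.19, SE 0.058, edgeR adjusted p = 0.231). At day 35 its saline libraries averaged 7298 ± 547 CPM and its meth libraries 7985 ± 432 CPM, and edgeR gave a log2 fold change of 0.13 with an SE of 0.058 (adjusted p = 0.820). Within lanes rank 5 was higher in meth than in saline in 4 of 4 lanes at both days. With lane as a replicate block it passed at day 2, at a log2 fold change of 0.19 with an SE of 0.032 (edgeR adjusted p = 0.0362), in the place of rank 48, and at day 35 the edgeR adjusted p was 0.431. It did not pass at day 2 in any other alternative fit, where the adjusted p ran from 0.0707 with DESeq2 to 0.671.

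At day 35 edgeR called no member between meth and saline, where 0% of all genes were called. DESeq2 and limma-voom also called 0 members, with 0.0048% and 0% of genes called, and 4 members had an unadjusted p under 0.05, against 5.85% of all genes. The groups did not overlap for 2 members, against 3.32% of all genes. Fold changes of members ran from -0.19 to 0.16 on the log2 scale, with a median of 0.00. The interval lay inside the 1.2-fold band for 94 members, against 61.7% of all genes, so for those 94 a larger change is outside the 95% interval.

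Between day 35 and day 2 in meth rats, 4 members were called, 3 higher and 1 lower at day 35, where 1.83% of all genes were called (0.448% higher and 1.38% lower). The 100 genes ranked next held 5 called genes. The groups did not overlap for 15 members, against 10.9% of all genes. DESeq2 called 9 members, 7 higher and 2 lower, and 3.74% of the genes to which it gave an adjusted p.

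Rank 48 fell in this comparison, from the 1617 to 1850 CPM of the day 2 meth libraries to 1390, 1421, 1360 and 1381 CPM in day 35 meth replicates 5 to 8. The change was 1.24-fold (log2 fold change -0.32, SE 0.045, edgeR adjusted p = 0.00141) and passed in all 16 fits that left out 1 library. It was the only member whose fold change exceeded 1.2-fold here. The day 2 comparison uses the same day 2 meth libraries, so a high level of rank 48 there enters both.

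Rank 65 rose between the days in meth rats. Day 35 meth replicates 5 to 8 had 1322, 1247, 1348 and 1377 CPM, all above the day 2 meth libraries (log2 fold change 0.24, SE 0.040, edgeR adjusted p = 0.00339). This comparison shares the day 2 meth libraries with the day 2 comparison, so a low level there enters both.

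Rank 76 (ENSRNOG00000016541) rose as well. It stood at 1131, 1018, 1123 and 1095 CPM in day 2 meth replicates 1 to 4 and at 1276, 1309, 1238 and 1205 CPM in day 35 meth replicates 5 to 8, with no overlap (log2 fold change 0.21, SE 0.035, edgeR adjusted p = 0.00366). In saline rats it stood at 1141 ± 30.6 CPM at day 2 and 1197 ± 20.4 CPM at day 35 (SD, n = 4 each, log2 fold change 0.08, SE 0.035, edgeR adjusted p = 0.536).

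The other member called, rank 33, had the smallest change of those called, from 1740 ± 31.3 to 1864 ± 59.3 CPM (SD, n = 4 each, log2 fold change 0.11, SE 0.026, edgeR adjusted p = 0.0416). Its day 35 meth libraries, at 1882, 1904, 1895 and 1777 CPM, all lay above the day 2 meth libraries, at 1763, 1764, 1736 and 1697 CPM. It missed the threshold without any 1 of day 2 meth replicates 1 to 4 or day 35 meth replicates 5 to 7 (adjusted p 0.0528 to 0.129), with library totals in place of TMM factors (adjusted p = 0.0785), and in a fit of the 2 meth groups alone (adjusted p = 0.0507). The fit of the 2 groups called rank 14 instead, lower at day 35 (log2 fold change -0.15, SE 0.033, edgeR adjusted p = 0.0392). In the fit of 4 groups the edgeR adjusted p of rank 14 was 0.192.

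**Figure D5:**
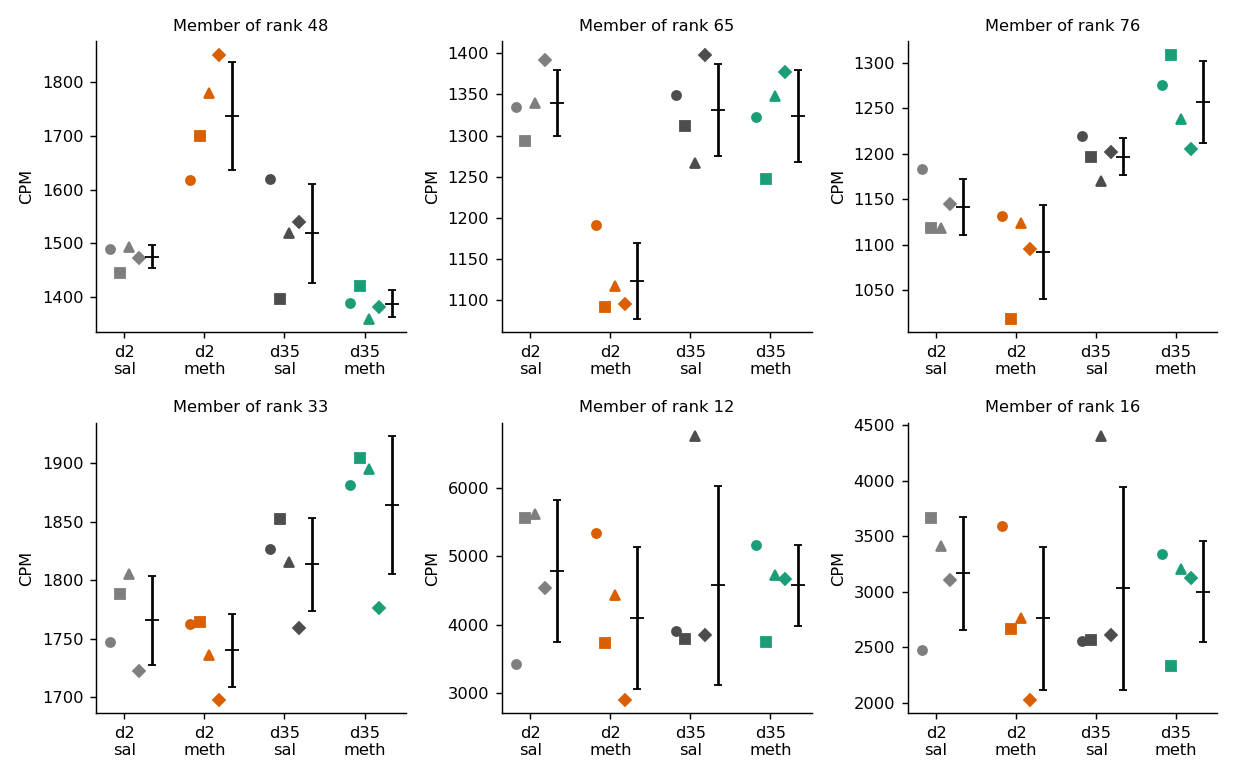
CPM in each library by group (d2, day 2; d35, day 35; sal, saline) for the 4 members called in any comparison, ranks 48, 65, 76 and 33, and for the 2 most variable members, ranks 12 and 16; marker shapes are lanes 1 (circle), 2 (square), 3 (triangle) and 4 (diamond), black bars are means ± SD of 4 libraries, and the vertical axes do not start at 0. Day 2 meth libraries are all below every other library for rank 65 and all above the day 2 saline and day 35 meth libraries for rank 48, while for ranks 12 and 16 every group overlaps every other.

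Between day 35 and day 2 in saline rats edgeR called no member, where 0% of all genes were called. An unadjusted p under 0.05 was found for 13 members, against 8.68% of all genes. Limma-voom called 0 members and 0% of genes, and DESeq2 called 1 member, rank 95, and 0.301% of the genes to which it gave an adjusted p. The groups did not overlap for 5 members, against 4.37% of all genes. The members' median log2 fold change was 0.02, with 65 positive and 35 negative. The 4 members called in meth rats had log2 fold changes here of 0.06 for rank 48, 0.01 for rank 65, 0.08 for rank 76 and 0.05 for rank 33.

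The change with the smallest p in saline rats was that of rank 95. It stood at 892, 814, 885 and 937 CPM in day 2 saline replicates 13 to 16 and at 1055, 1022, 1026 and 1105 CPM in day 35 saline replicates 9 to 12, with no overlap. The log2 fold change was 0.27 (SE 0.058), but the edgeR adjusted p was 0.187, and 0.0587 with lane as a replicate block. DESeq2 gave an adjusted p of 0.00891.

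Whether the difference between meth and saline itself changed from day 2 to day 35 was tested as an interaction. It called 1 member, rank 48, where 0.136% of all genes were called (0.013% higher and 0.123% lower). Its level was higher in meth than in saline rats at day 2, by 0.24 on the log2 scale. At day 35 its meth libraries averaged 1388 ± 25.2 CPM and its saline libraries 1519 ± 92.1 CPM (SD, n = 4 each, log2 fold change -0.13, SE 0.045, edgeR adjusted p = 0.763), where 1 saline library, at 1397 CPM, lay among the meth libraries. The difference of effects was -0.37 (SE 0.064, edgeR adjusted p = 0.0286). It also uses the day 2 meth libraries, so a high level there enters this and the earlier differences of rank 48. The interaction call was kept in 3 of 16 fits with 1 library left out. Those were the fits without day 2 saline replicate 15, day 2 meth replicate 1 or day 35 saline replicate 10. Without any of the other 13 the edgeR adjusted p was 0.0504 to 0.0864, and with lane as a block it was 0.0527. For rank 65 the difference of effects was 0.24 (SE 0.057, edgeR adjusted p = 0.149), which passed in DESeq2 (adjusted p = 0.0191).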

How the data were processed

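Per the labels' protocols, poly(A) RNA from pooled tissue punches of 2 rats was made into TruSeq RNA v2 libraries and sequenced on a HiSeq. Per the submitters' processing notes, TopHat, HTSeq and limma were used with build rn4; the sources used here do not give versions, annotation release or strand setting. The authors deposited raw counts per gene, 1 file per library. The 5 HTSeq summary rows of each file (31.1 to 32.6% of its counts, multi-mapping reads among them) were left out of all totals. Near-identical gene copies are therefore understated.

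The members were ranked on CPM over each library's gene total. Differences were tested over all 15413 genes kept by filterByExpr, with TMM factors (0.985 to 1.02) and 1 model of 4 group means in edgeR 4.0.16 under R 4.3.3 (glmQLFit robust, glmQLFTest), with Benjamini-Hochberg adjustment and a threshold of 0.05. The SE was taken as the size of the log2 fold change over the root of F. Printed levels are CPM without TMM. Scripts were tested on simulated data. The members, lists and tests were chosen with earlier results of these data known. Named genes were to be taken by rank, by call, by spread and by role lists; the role, reference gene and marker lists could not be run without gene names.

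Libraries of different groups share lanes in the labels. Deviations from group means correlated between libraries of 1 lane by 0.03 on average (24 pairs, -0.28 to 0.24) and otherwise by -0.01 (72 pairs). Over the members alone these were 0.22 (range -0.66 to 0.77) and -0.08. The 24 within-group pairs differed by 5.19 to 17.0 times counting noise (chi-square over degrees of freedom), so none was a library counted again. Alternatives were other scalings, no filter, DESeq2 1.42.0, limma-voom (limma 3.58.1), lane as a block, fits of 2 groups, and leaving out libraries. Counting error and p-values cover these pools only.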

Additional observations from a re-analysis of the deposited data

Results flagged for a closer look

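Of 100 sets of 4 libraries checked (22 members and 3 shares in each group), 3 had a library far from the other 3, where chance gives about 1 in 20. Ranks 1 to 10 took 10.8% of gene counts in day 35 meth replicate 8, against 9.53 to 9.67% in the other libraries of its group. In day 35 saline replicate 11, rank 12 stood at 6763 CPM against 3783 to 3912 CPM, and rank 16 at 4403 CPM against 2556 to 2609 CPM. The meth effect on rank 48 (ENSRNOG00000007290) differed between the days by -0.37 on the log2 scale in the test of that difference.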

How the results depend on the processing

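With lane as a replicate block, 5 members were called among the 4 groups (3 of them the ones called without it) and 0 for the change of the meth effect, 2 at day 2 (1 of them called without it) and 4 between the days in meth rats. The shares of all genes called were 0.85%, 0.026%, 0.11% and 2.02%, in that order. The block put 82 members inside the 1.2-fold band, against 78, and left the counts at day 35 and in saline rats at 0. DESeq2 called 10 members among the 4 groups (3.72% of the genes to which it gave an adjusted p) and 4 at day 2 (2.06%). It called 9 between the days in meth rats (3.74%) and 1 between the days in saline rats (0.301%). For the change of the meth effect it called 2 (0.575%). The edgeR shares were 0.733%, 0.11%, 1.83%, 0% and 0.136%, in that order. The bases of these shares differ. DESeq2 gave an adjusted p to 14367, 5484, 14771, 11944 and 13559 genes in the same order, and edgeR to 15413 in each. At day 2 DESeq2 called 113 genes and edgeR 17. A fit of the day 2 libraries alone called 1 member and 0.0885% of its genes. Without both day 2 saline replicate 13 and day 2 meth replicate 4, 0 members were called at day 2, for the change of the meth effect or among the 4 groups. The shares of all genes called in that setting were 0.0258%, 0% and 0.103%. Without both day 2 saline replicate 14 and day 35 meth replicate 8, 1 member was called at day 2 and 0 for the change of the meth effect, with 0.103% and 0% of all genes. The last 2 settings were chosen after seeing the data, and the causes were not tested. With 1 library left out, the count was 0 to 2 at day 2, 0 to 1 for the change of the meth effect, 2 to 3 among the 4 groups and 3 to 4 between the days in meth rats. The shares of all genes called moved too, over 0.0387 to 0.135%, 0 to 0.11%, 0.271 to 0.805% and 0.672 to 1.97%, in that order. The 7 called fold changes kept their sign in every alternative run for them. Those of ranks 5, 12, 16 and 95 and of rank 48 outside its calls did so too, in the comparisons given in the text. The fold change of rank 65 (ENSRNOG00000050983) between the days in saline rats, 0.01, lay near 0: it was -0.00896 with library totals and -0.0165 without both day 2 saline replicate 14 and day 35 meth replicate 8, and ran from -0.0250 to 0.0294 with 1 library left out. Of all counts deposited for a library, summary rows included, the members took 16.5%. Ranked on the median, TMM-scaled or log2 values, without 1 library or in 1 group alone, 98 to 100 of the members were kept. Without 1 library, 73 to 87 members had intervals inside 1.2-fold. Ranking per kilobase was not run, since no length could be matched to an identifier.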
